A study of Homo sapiens with 9 samples.

Results

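The endoplasmic reticulum (ER) autophagy receptors are the proteins that select pieces of ER for degradation in lysosomes. The 10 genes RETREG1, RETREG2, RETREG3, RTN3, ATL3, SEC62, CCPG1, TEX264, CDK5RAP3 and CALCOCO1 were taken as a fixed list by name, out of 58735 genes in the count files, with no threshold on a measured value. In ER autophagy, a receptor that sits in or binds the ER membrane carries a short motif for ATG8 proteins, the ubiquitin-like proteins coupled to the growing autophagosome membrane, and so ties a stretch of ER to it. Receptors with a reticulon-type hairpin domain also bend the membrane, and different receptors serve sheets, tubules, stalled translocation sites or recovery from ER stress. In liver cells the ER is where apolipoprotein B (apoB) is made and loaded with lipid, and retained lipoprotein precursors are among the known loads on this organelle.

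Messenger RNA was sequenced from Huh-7, a human hepatoma cell line, and from a pair of knockout clones derived from it, with 3 libraries in each of 3 groups. Ako-3 is 1 single-cell clone in which Cas9 and 3 guide RNAs, delivered as ribonucleoprotein, were aimed at an exon of APOB, the structural protein of triglyceride-rich lipoproteins. Mko-3 is 1 clone with a knockout of MTTP, the lipid transfer protein that loads apoB, and the Huh-7 libraries are wild type for both genes. All 3 groups were grown in DMEM with fetal bovine serum and were then washed and left overnight without serum, so serum withdrawal, itself a known inducer of autophagy, was shared by controls and clones.

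Each knockout was represented by 1 clone, and the p-values therefore measure the spread between libraries of that clone and cannot tell the targeted gene from other features of the clone. Total counts ranged from 14638727 to 20179760 per library. The log2 fold change against Huh-7 was -1.36 for APOB in Ako-3 and -2.88 for MTTP in Mko-3, and both fell in every library of the clone, although both counts cover the whole transcript and do not test the edit itself. The hepatocyte marker list summed to between 5308 and 5489 FPKM (fragment counts per kilobase of gene, scaled by a size factor for each library) in Huh-7, 6416 and 6749 in Ako-3, and 5155 and 5409 in Mko-3. The leukocyte markers CD68 and PTPRC had at most 2 counts in any library, and the endothelial marker KDR had 0. However, LYZ reached 6421 counts, PECAM1 2093, CD14 208 and CDH5 129. The 6 fibroblast and stellate markers summed to between 0.881 and 1.02 FPKM in Huh-7, 0.750 and 1.27 in Ako-3, and 0.681 and 0.827 in Mko-3. Of these, COL1A2 had 43 to 77 counts in Huh-7, 0 to 15 in Ako-3 and 5 to 8 in Mko-3. With LYZ and PECAM1 included, the 5 leukocyte markers summed to between 150.2 and 163 FPKM in Huh-7, 186 and 203 in Ako-3, and 188 and 202 in Mko-3, and the 4 endothelial markers to between 9.86 and 11.3, 13.5 and 14.6, and 7.30 and 7.97. Mitochondrial transcripts took 5.52% to 6.17% of counts in Huh-7, 7.06% to 7.40% in Ako-3 and 5.75% to 5.82% in Mko-3. The part of these differences in the results was not tested. In bulk RNA, fewer cells that express a gene and less of its RNA per cell cannot be told apart.

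The upstream sequences of the receptors were read first, because lysosomal and autophagy genes are known targets of factors that bind the E-box CACGTG. RefSeq windows on GRCh38.p14, from 250 bases before to 50 bases after a start site, were matched to 9 of the 10 genes, with 13 windows in all. The palindrome TCACGTGA, which contains CACGTG, was found in RETREG2 alone among the matched receptors and in 0.980% of all 35116 windows, on either strand. RETREG2 held it at 73 and at 46 bases before its start site, and 29 windows in all, or 0.0826%, held at least 2 copies. The form TGACGTGG, which holds the core TGACGT known for binding ATF-type factors, was found in SEC62 alone among them, 17 bases before the start site, and in 0.729% of all windows. These stretches are shown because they are the only matches of the longer motifs among the receptors, and capitals mark the motif.
RETREG2, first copy, chr2:219178192-219178219, plus strand: ttaggccgcgTCACGTGAcgggctcagc
RETREG2, second copy, chr2:219178219-219178246, plus strand: cgctccgcagTCACGTGAcgctcgtccg
SEC62, chr3:169966782-169966805, plus strand, with the motif read on the minus strand: tcctcgctCCACGTCAgagggaac
The first RETREG2 stretch overlapped no exon in GENCODE release 44, the second touched an exon of a RETREG2 transcript annotated for nonsense-mediated decay, and the SEC62 stretch lay within exons of SEC62 transcripts annotated for nonsense-mediated decay or without a defined coding sequence. The shorter CACGTG was in 7.26% of windows and TGACGT in 7.98%, and each was again found in 1 of the 13 receptor windows only. TGATGNAAN, a form of the composite site of CHOP and ATF4, was in 3.61% of windows and the ER stress element, which joins CCAAT to CCACG over a fixed gap, in 0.0769%. Neither was found in the receptor windows. CCAAT was present in 34.6% of all windows and in 5 of the 13 receptor windows, which belong to 4 genes. The CDK5RAP3 window held 4 matches, of which the outer positions lay 200 and 24 bases before the start site and a neighbouring pair overlapped. At least 4 matches were held by 0.991% of all windows. A match of letters is a description and does not show that a factor binds.

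In Huh-7 cells the receptors spanned a wide range of levels. On the FPKM scale, which is per length of annotated exons, the RTN3 gene had the highest level, at 26.5 ± 0.769 FPKM (SD, n = 3). Its counts do not separate the long form, the only one known as a receptor, from the other forms. RTN3 was followed by ATL3 at 21.4 ± 0.337, SEC62 at 19.3 ± 1.43, RETREG2 at 12.2 ± 0.499 and RETREG3 at 10.9 ± 0.401 FPKM. The proteins encoded by RTN3 and ATL3 shape and remodel ER tubules, whereas SEC62 belongs to the protein translocation machinery, so the 3 leading transcripts encode proteins that also have ER functions outside autophagy. The lower part of the order held CALCOCO1 at 6.79 ± 0.678, TEX264 at 5.98 ± 0.529, CCPG1 at 4.77 ± 0.532 and CDK5RAP3 at 3.37 ± 0.330 FPKM. RETREG1, the sheet receptor better known as FAM134B, was by far the lowest at 0.377 ± 0.107 FPKM, with 18 to 40 counts per Huh-7 library. Of the 9 neighbouring pairs in this order, 8 had libraries that did not overlap, and the exception was CALCOCO1 and TEX264. The length covers all exons annotated for the counts, whichever transcripts are expressed, so this order depends on the annotation as well. For RETREG1 that length was 4568 bases, whereas its exons in GENCODE release 44 cover 15449 bases. CCPG1 and CDK5RAP3 share 38.7% and 30.6% of their exon bases with other genes in release 44. The same limits hold for shares of summed FPKM.

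The order changed at one place between control and clones. TEX264 stood above CALCOCO1 in both clones, at 8.93 ± 0.131 against 4.42 ± 0.158 FPKM in Ako-3 and 10.3 ± 0.239 against 3.22 ± 0.319 FPKM in Mko-3, without overlap of libraries. RETREG2 and RETREG3 overlapped in Mko-3, at 13.3 ± 0.593 and 12.9 ± 0.246 FPKM, and did not overlap in Huh-7 or Ako-3. All other receptors kept their places.

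The summed level of the 10 receptors moved little while its makeup changed. The sum was 111.6 ± 3.42 FPKM in Huh-7, 115.2 ± 2.04 in Ako-3 and 115.6 ± 0.673 in Mko-3 (SD, n = 3 each), and the difference between means was near the spread of the control libraries. The share of CALCOCO1 in that sum was 6.07% in Huh-7, 3.83% in Ako-3 and 2.78% in Mko-3. TEX264 took 5.37%, 7.75% and 8.91% of it in the same order. CCPG1 took 4.27%, 2.32% and 2.27%, and CDK5RAP3 3.02%, 1.43% and 1.09%. RTN3, with all its forms counted together, took 23.7%, 25.7% and 26.8%.

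**Figure D1:**
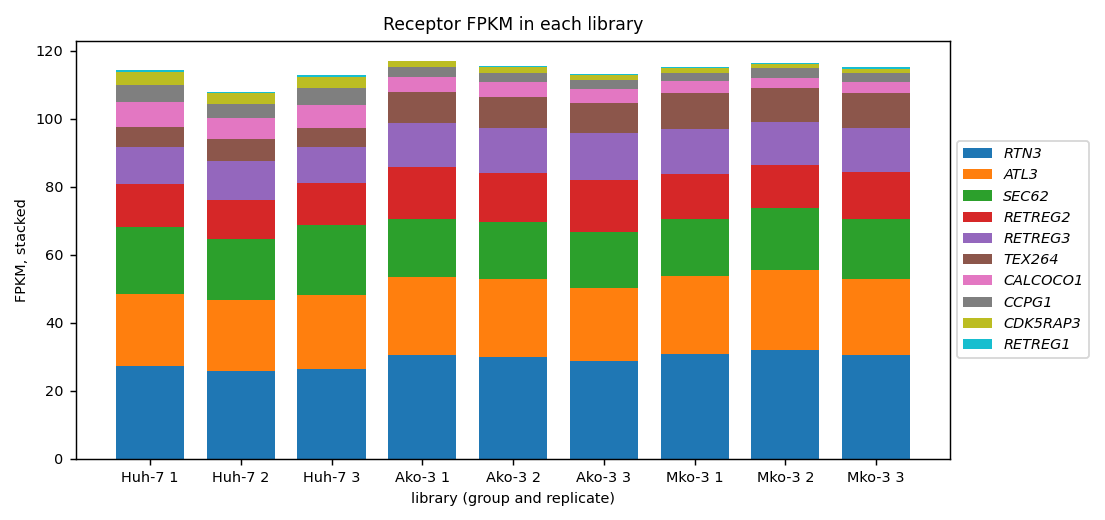
Stacked FPKM of the 10 receptors (y axis) in each of the 9 libraries (x axis), 1 colour per gene, with RTN3 at the base and RETREG1 at the top. The column heights are similar, with group means of 111.6, 115.2 and 115.6 FPKM, while the TEX264 band is wider and the CALCOCO1, CCPG1 and CDK5RAP3 bands are narrower in both clones than in Huh-7.

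The first comparison asked what differed in the APOB knockout clone. In Ako-3, the receptors moved in both directions, with falls in CDK5RAP3, CCPG1, CALCOCO1, RETREG1 and SEC62 and rises in TEX264, RETREG2, RETREG3 and RTN3. All 10 genes passed the filter on low counts, and 9 passed an adjusted p of 0.05 in edgeR's quasi-likelihood test, 4 of them higher and 5 lower. Among all 15787 genes tested, 49.9% passed, 25.5% higher and 24.4% lower, so a gene that passed was common in this comparison. With the added requirement of a log2 fold change of at least 1 in size, 1 receptor, CDK5RAP3, was called, against 8.52% of all genes. The median log2 fold change of the receptors was -0.07, beside -0.01 over all genes, and the median size was 0.44, beside 0.31. With scaling by library size alone the median over all genes moved to -0.10, 3067 of 8023 passing genes were higher instead of 4032 of 7880, and 3 receptors were higher and 5 lower.

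The second comparison asked the same for MTTP. In Mko-3, CDK5RAP3, CALCOCO1 and CCPG1 fell and TEX264, RETREG3 and RTN3 rose, whereas RETREG1, RETREG2, SEC62 and ATL3 did not pass the test. The 6 receptors that passed, 3 in each direction, stood beside 54.0% of all 15745 genes tested, 26.9% higher and 27.1% lower. CDK5RAP3 and CALCOCO1 were called with the fold requirement, beside 11.0% of all genes. The median log2 fold change of the receptors was 0.08 and its median size 0.22, against -0.01 and 0.34 over all genes. Both comparisons used the same Huh-7 libraries, so their values are given side by side below and their likeness is not a separate result.

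**Figure D2:**
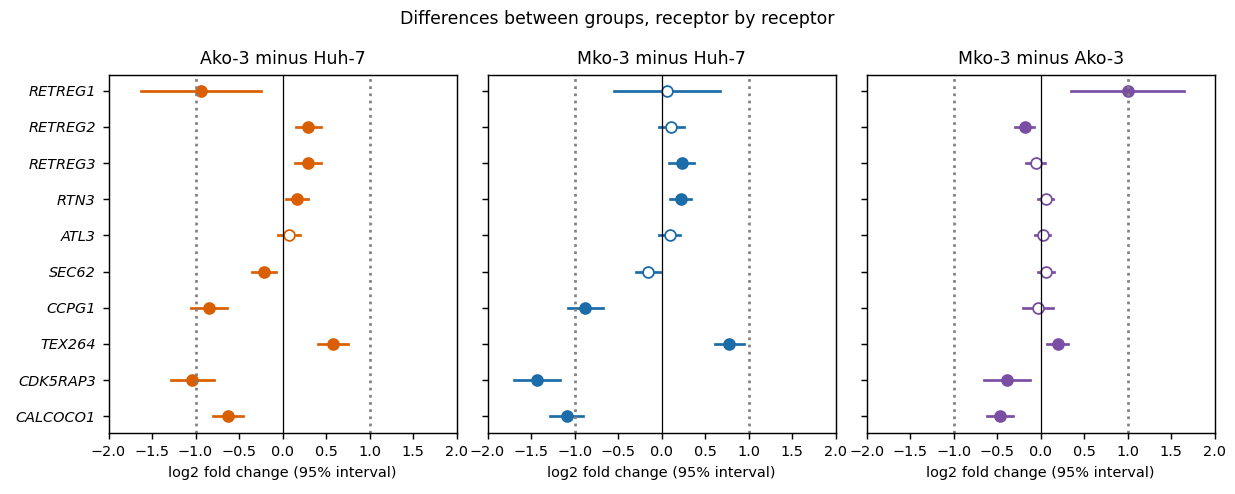
Log2 fold change of each receptor (x axis) with its 95% interval, in 3 panels for Ako-3 minus Huh-7, Mko-3 minus Huh-7 and Mko-3 minus Ako-3, where filled points passed an adjusted p of 0.05 and dotted lines mark a log2 fold change of 1 in size. CDK5RAP3 lies beyond the line in both left panels and CALCOCO1 in the middle one, TEX264 is to the right of 0 in all 3, and RETREG1 has the widest intervals.

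CDK5RAP3 encodes a soluble receptor, also called C53, that binds the ligase attaching UFM1 to ribosomes at the ER and joins them to ATG8 proteins. It had 22.9, 18.9 and 20.3 CPM (counts scaled to a common library size after TMM normalization, the trimmed mean of M values) in the Huh-7 libraries, 9.65, 11.4 and 9.32 in Ako-3, and 9.0, 6.91 and 7.31 in Mko-3. Every clone library lay below every Huh-7 library, as did 28.1% of all genes in Ako-3 and 29.8% in Mko-3. The log2 fold change was -1.04 ± 0.12 (SE) in Ako-3, with an adjusted p of 4.7e-07, and -1.43 ± 0.13 in Mko-3, with an adjusted p of 6.7e-09, which corresponds to 0.487 and 0.372 of the control level. The Ako-3 value lies close to the fold threshold, and it was -0.96 without Huh-7 replicate 1, -0.98 without Ako-3 replicate 3 and -0.999 without Ako-3 replicate 1. In the first of these cases and the second, 0 receptors met both requirements, and in the last RETREG1 alone did, at -1.01 (adjusted p = 0.042 in edgeR's test). The clones differed from each other by -0.39 ± 0.13, Mko-3 being lower, with an adjusted p of 0.015, but this passed no longer without Ako-3 replicate 2 (adjusted p = 0.13 in edgeR's test), Mko-3 replicate 2 (0.095) or Mko-3 replicate 3 (0.060). The gene lies on the plus strand of chromosome 17 from 47967810 to 47981774 in the hg38 coordinates of the files, where the noncoding gene AC018521.1 covers 30.6% of its exon bases but had 0 counts in every library. With counts assigned to 1 gene, reads in shared exons could not be divided between them, so the 0 counts do not measure the overlap.

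CALCOCO1 encodes a soluble, coiled-coil receptor that reaches the ER through the membrane proteins VAPA and VAPB. Its levels were 66.5, 54.3 and 62.2 CPM in Huh-7, 40.9, 40.4 and 38.1 in Ako-3, and 31.5, 25.9 and 29.2 in Mko-3. The 3 groups did not overlap and formed a descending series from Huh-7 to Ako-3 to Mko-3. The share of all genes with such a series was not counted. By pairs, 28.1% of all genes in Ako-3 and 29.8% in Mko-3 lay wholly below Huh-7, and 24.1% were wholly lower in Mko-3 than in Ako-3. The log2 fold change of CALCOCO1 was -0.63 ± 0.08 in Ako-3 (adjusted p = 2.9e-06, edgeR) and -1.09 ± 0.09 in Mko-3 (adjusted p = 2.6e-09), or 0.648 and 0.469 of the control level. Between the clones, Mko-3 was lower than Ako-3 by a log2 fold change of -0.46 ± 0.07, with an adjusted p of 2.9e-07. Under all alternatives tried these calls remained, and the Mko-3 value lay between -1.16 and -1.01. CALCOCO1 is on the minus strand of chromosome 12 from 53708517 to 53727745, and no other gene of the files overlaps it.

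CCPG1 encodes an ER membrane receptor that binds both ATG8 proteins and FIP200, the scaffold of the initiation complex, and its transcript is known to be induced by the unfolded protein response. Huh-7 libraries had 46.2, 37.0 and 43.9 CPM, Ako-3 libraries 26.6, 22.3 and 22.4, and Mko-3 libraries 21.6, 25.5 and 22.6. Both clones lay below the control libraries and overlapped each other. The log2 fold changes were -0.85 ± 0.10 in Ako-3 and -0.88 ± 0.10 in Mko-3, with adjusted p-values of 5.7e-07 and 1.5e-07 in edgeR's test, which is 0.556 and 0.544 of the control level. The difference between clones was -0.03, with a 95% interval from -0.20 to 0.14 and an adjusted p of 0.82. CCPG1 is on the minus strand of chromosome 15, from 55340032 to 55408510. It shares 38.7% of its exon bases with the readthrough gene DNAAF4-CCPG1, which had at most 1 count. As with CDK5RAP3, reads in shared exons could not be divided, so this count does not measure the overlap. CCPG1 also shares 5.04% with PIGB on the opposite strand. The PIGB log2 fold changes were 0.06 and 0.11 in the clones and did not pass the test.

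TEX264 encodes a single-pass ER membrane receptor that is known to carry a large part of the ER flux in starved cells. It stood at 33.7, 37.6 and 31.7 CPM in Huh-7, 51.5, 52.3 and 50.5 in Ako-3, and 59.9, 57.7 and 59.7 in Mko-3. As with CALCOCO1 the groups did not overlap, here in ascending order, and the share of all genes with such a series was not counted. By pairs, 29.7% of all genes in Ako-3 and 30.9% in Mko-3 lay wholly above the control, and 25.6% were wholly higher in Mko-3 than in Ako-3. On the log2 scale TEX264 rose by 0.58 ± 0.08 in Ako-3 (adjusted p = 5.4e-06, edgeR) and 0.78 ± 0.08 in Mko-3 (adjusted p = 5.4e-08), which is 1.49 and 1.71 times the control level. Mko-3 exceeded Ako-3 by 0.20 ± 0.06, with an adjusted p of 0.0058. TEX264 was the receptor with the largest rise in either clone against Huh-7. The gene lies on the plus strand of chromosome 3 from 51662693 to 51704323 and shares 3.24% of its exon bases with RAD54L2 on the same strand, whose log2 fold changes of -0.08 and -0.03 did not pass the test.

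**Figure D3:**
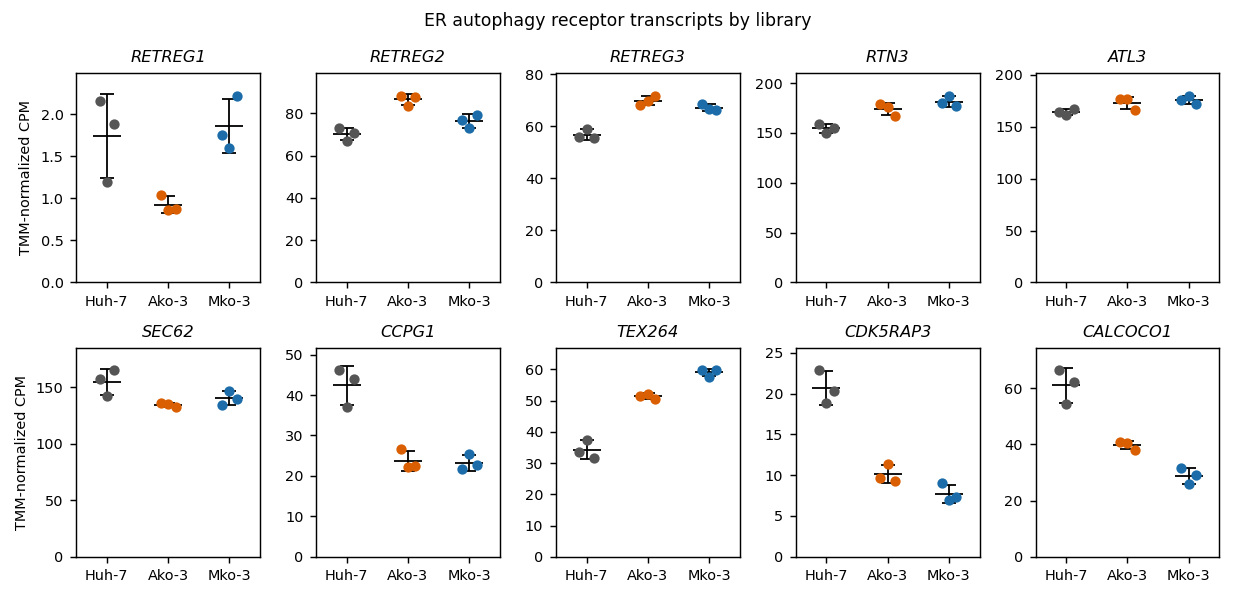
TMM-normalized CPM (y axis, from 0) of each receptor in the 3 libraries of Huh-7, Ako-3 and Mko-3, with points for libraries, horizontal marks for means and bars for SD. Both clones are wholly below Huh-7 for CCPG1, CDK5RAP3 and CALCOCO1 and wholly above it for TEX264, RETREG2, RETREG3 and RTN3. RETREG1 is low in Ako-3 alone. Of all genes, 28.1% in Ako-3 and 29.8% in Mko-3 lay wholly below Huh-7, and 29.7% and 30.9% wholly above.

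The 3 members of the RETREG family, which share a reticulon-homology domain, did not move together. RETREG1, a receptor of ER sheets, had 2.15, 1.19 and 1.89 CPM in Huh-7, 1.04, 0.866 and 0.868 in Ako-3, and 1.76, 1.60 and 2.22 in Mko-3. In raw counts these were 40, 18 and 34 in Huh-7, 17, 17 and 15 in Ako-3, and 31, 28 and 34 in Mko-3. Ako-3 lay below the other groups without overlap, and Huh-7 replicate 2 was the control library closest to it. The log2 fold change of -0.94 ± 0.33 in Ako-3 passed with an adjusted p of 0.023 in edgeR's test, but its 95% interval ran from -1.62 to -0.25. The call did not hold in DESeq2 (adjusted p = 0.053), nor in edgeR without Huh-7 replicate 1 (0.11), Huh-7 replicate 3 (0.077), Ako-3 replicate 2 (0.077) or Ako-3 replicate 3 (0.075).

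In Mko-3 the RETREG1 difference from Huh-7 was 0.06, with an interval from -0.55 to 0.67 and an adjusted p of 0.88, and its sign changed without Huh-7 replicate 2, without Mko-3 replicate 3 and with scaling by library size alone. Between the clones RETREG1 was higher in Mko-3 by 1.00 ± 0.33, or 2.00 times, with an adjusted p of 0.0097. Without Mko-3 replicate 3 this difference was 0.86, with an adjusted p of 0.062 in edgeR's test. RETREG1 spans 16473038 to 16617058 on the minus strand of chromosome 5.

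RETREG2 and RETREG3, the paralogs also named FAM134A and FAM134C, had FPKM levels far above RETREG1 and differed between groups by small steps. RETREG2 had 72.9, 67.1 and 70.6 CPM in Huh-7, 88.4, 83.7 and 87.8 in Ako-3, and 77.0, 73.1 and 79.3 in Mko-3. It was highest in Ako-3, with a log2 fold change of 0.29 ± 0.07 against Huh-7 (adjusted p = 0.0013, edgeR), and Mko-3 was below Ako-3 by -0.18 ± 0.05 (adjusted p = 0.0043). Mko-3 libraries all lay above the Huh-7 ones, yet the difference of 0.11, with an interval from -0.03 to 0.26, did not pass (adjusted p = 0.18). RETREG2 is the receptor with the paired TCACGTGA sequence shown above, on chromosome 2 from 219176225 to 219185479 on the plus strand. It shares 5.13% of its exon bases with CNPPD1 on the opposite strand, and CNPPD1 rose as well, by 0.27 in Ako-3 and 0.39 in Mko-3, with adjusted p-values of 0.014 and 0.00085.

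RETREG3 had 55.7, 59.1 and 55.7 CPM in Huh-7, 68.3, 69.7 and 71.8 in Ako-3, and 68.7, 66.6 and 66.3 in Mko-3. Both clones were above the control and overlapped each other. It rose by 0.29 ± 0.07 in Ako-3 (adjusted p = 0.0017, edgeR) and by 0.23 ± 0.07 in Mko-3 (adjusted p = 0.0083), and the latter had an adjusted p of 0.052 when scaled by library size alone. The clones differed by -0.06, with an interval from -0.17 to 0.05. RETREG3 lies on the minus strand of chromosome 17 from 42579513 to 42610623 and shares 3.38% of its exon bases with TUBG1 on the opposite strand, which rose by 0.31 and 0.20 in the clones. The strand setting of the counting is not given in the sources used here, so the share of such reads was not tested.

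RTN3 and ATL3, the tubule receptors, are neighbours on chromosome 11 that point away from each other, with 9524 bases between them. RTN3, from 63681446 to 63759891 on the plus strand, has 10 annotated coding transcripts of which the longest encodes 1032 residues, and only the long form is known as a receptor. The gene counts do not separate the forms. RTN3 had 159, 150.0 and 155 CPM in Huh-7, 179, 176 and 167 in Ako-3, and 179.6, 187 and 177 in Mko-3. The clones lay above the control in every library, by 0.16 ± 0.06 in Ako-3 (adjusted p = 0.033, edgeR) and 0.22 ± 0.06 in Mko-3 (adjusted p = 0.0043). In Ako-3 this small rise did not pass without Huh-7 replicate 2 (0.057), Ako-3 replicate 1 (0.12) or Ako-3 replicate 2 (0.099), nor with scaling by library size alone (0.38).

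ATL3, a GTPase of tubule junctions, lies from 63624087 to 63671921 on the minus strand. It had 164, 161 and 167 CPM in Huh-7, 176, 177 and 166 in Ako-3, and 176, 180.0 and 172 in Mko-3. The log2 fold changes of 0.07 in Ako-3, with an interval from -0.06 to 0.19, and 0.09 in Mko-3, with an interval from -0.03 to 0.21, did not pass (adjusted p = 0.37 and 0.20, edgeR). The Ako-3 value had the opposite sign, -0.026, when scaled by library size alone. Neither interval reached beyond 0.21 on the log2 scale.

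SEC62, a subunit of the translocation complex that acts as a receptor during recovery from ER stress, lies on chromosome 3 from 169966635 to 169998373 on the plus strand. Its levels were 157, 142 and 165 CPM in Huh-7, 136, 135 and 132 in Ako-3, and 134, 147 and 140.0 in Mko-3. Ako-3 lay below the control without overlap, whereas Mko-3 overlapped it through Huh-7 replicate 2. The log2 fold change was -0.21 ± 0.07 in Ako-3 (adjusted p = 0.012, edgeR), which no longer passed without Huh-7 replicate 3 (0.064) or Ako-3 replicate 3 (0.061). In Mko-3 it was -0.15 ± 0.07 (adjusted p = 0.057), and it passed without Huh-7 replicate 2 (0.0066).

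Set directly against each other, the clones differed in 5 receptors. RETREG1 and TEX264 were higher and CALCOCO1, CDK5RAP3 and RETREG2 lower in Mko-3 than in Ako-3, beside 41.6% of all 15528 genes tested, 21.1% higher and 20.6% lower. The libraries of the clones did not overlap in any of the 5, as was so for 25.6% of all genes with Mko-3 higher and 24.1% with Mko-3 lower. The number of receptors that passed the test was 3 without Mko-3 replicate 3, beside 5759 of 15917 genes tested. None of the 10 met the fold requirement, beside 5.73% of all genes, since RETREG1 fell just short of a log2 fold change of 1. RETREG3, RTN3, ATL3, SEC62 and CCPG1 had 95% intervals that all lay between -0.20 and 0.15. The median size of the log2 fold change was 0.12 in the receptors and 0.21 over all genes.

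The other genes of the pathway were followed as lists set by role, in both comparisons with Huh-7. Among the ATG8 genes, to whose products all receptors bind, 5 of 7 were tested, and 0 rose while 3 fell in Ako-3 and 2 in Mko-3, where 24.4% and 27.1% of all genes were lower. The Mko-3 count was 4 with library size alone and 1 without Mko-3 replicate 2 or Mko-3 replicate 3. MAP1LC3B, which encodes the LC3 form most used as an autophagy marker, fell by 0.50 in Ako-3 (adjusted p = 4.3e-06, edgeR) and differed by -0.11 in Mko-3 (adjusted p = 0.18). GABARAPL1 fell by 0.46 and 0.36 and GABARAPL2 by 0.26 and 0.24 in Ako-3 and Mko-3. In Mko-3 the GABARAPL2 call was lost without Huh-7 replicate 1 (adjusted p = 0.058 in edgeR's test), Mko-3 replicate 2 (0.070) or, narrowly, Mko-3 replicate 3 (0.050). The list median was -0.26 and -0.24, where all genes had -0.01 in both.

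The initiation complex, to which CCPG1 binds, had 4 of 5 genes tested. RB1CC1, which encodes FIP200, had 84, 88 and 141 counts in Huh-7, 19, 11 and 14 in Ako-3, and 14, 10 and 17 in Mko-3. These are low counts for every group, and the clones lay far below the control and overlapped each other. The log2 fold changes were -2.86 ± 0.28 and -2.89 ± 0.28, with adjusted p-values of 7.1e-08 and 2.3e-08 in edgeR's test. The kinase gene ULK1 fell by 0.24 in Ako-3 and differed by -0.10 in Mko-3, where it did not pass. Its Ako-3 call (adjusted p = 0.0067, edgeR) was narrowly lost without Ako-3 replicate 2 (0.050), and in Mko-3 it passed without Huh-7 replicate 3 (0.036) and with library size alone (0.034). ATG13 rose in Ako-3 by 0.30 and ATG101 in Mko-3 by 0.25, and the latter did not pass in DESeq2 (adjusted p = 0.057) or without Huh-7 replicate 3 (0.15), Mko-3 replicate 1 (0.068) or Mko-3 replicate 3 (0.22).

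The UFM1 system, with which CDK5RAP3 works, was followed over 6 genes. UFM1, the modifier itself, fell by 0.69 in Ako-3 and 0.35 in Mko-3 (adjusted p = 1.9e-06 and 0.0016, edgeR), the ligase gene UFL1 by 0.49 and 0.32, and the protease gene UFSP2 by 0.46 and 0.72. DDRGK1, the ER anchor of the ligase, rose by 0.46 in Mko-3 (adjusted p = 1.2e-05), together with the conjugating enzyme gene UFC1 by 0.33 and UFSP1 by 0.87. In all, 0 rose and 3 fell in Ako-3, beside 25.5% and 24.4% of all genes, and 3 rose and 3 fell in Mko-3, beside 26.9% and 27.1%. Under the alternatives, 0 to 1 rose and 2 to 3 fell in Ako-3, and 2 to 3 rose and 2 to 3 fell in Mko-3. The UFSP2 fall in Ako-3 (adjusted p = 0.024, edgeR) did not pass without Huh-7 replicate 3 (0.12), Ako-3 replicate 1 (0.098) or Ako-3 replicate 3 (0.082), nor with no filter (0.055). The UFSP1 rise in Mko-3 (adjusted p = 0.046, edgeR) did not pass without Huh-7 replicate 1 (0.14) or 3 (0.15) or Mko-3 replicate 1 (0.070) or 3 (0.22), nor in DESeq2 (0.087), with no filter (0.055), with a replicate block (0.054) or with library size alone (0.064). The UFL1 fall in Mko-3 did not pass without Mko-3 replicate 3 (adjusted p = 0.054).

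Partners and modifiers of the receptors were the list with rises alone, 8 of 11 in each clone, beside 25.5% of all genes higher in Ako-3 and 26.9% in Mko-3. VCP, the ATPase that extracts proteins from the ER membrane, stood at 488, 676 and 489.9 CPM in Huh-7, 1075 to 1141 in Ako-3, and 1167 to 1229 in Mko-3. Every clone library was above every control library, and the log2 fold changes were 0.99 ± 0.11 and 1.11 ± 0.12 (adjusted p = 5e-05 and 4.6e-05, edgeR). SEC61A1, the channel of the translocon that SEC62 serves, rose by 0.67 and 0.53, CANX, a chaperone that hands cargo to RETREG1, by 0.21 and 0.51, and PGRMC1, known as a partner of RTN3, by 0.39 and 0.35. The list median was 0.30 in Ako-3 and 0.35 in Mko-3. With scaling by library size alone, 6 rose and 2 fell in Ako-3 and 8 rose in Mko-3, and CANX no longer passed in Ako-3 (adjusted p = 0.11, edgeR).

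Receptors of other selective autophagy showed the opposite balance, with 0 of 14 higher and 7 lower in each clone. Of all genes, 25.5% were higher and 24.4% lower in Ako-3, and 26.9% and 27.1% in Mko-3. OPTN, a receptor for mitochondria and bacteria, fell by 0.82 in Ako-3 and 1.02 in Mko-3, and SQSTM1, the ubiquitin receptor p62, by 0.72 and 0.23, with adjusted p-values of 7.9e-09 and 0.0033 for SQSTM1. NCOA4, the ferritin receptor, fell by 0.17 and 0.39, and its Ako-3 call was lost without any of Ako-3 replicates 1 (adjusted p = 0.053 in edgeR's test), 2 (0.12) and 3 (0.095). Under the alternatives, between 4 and 8 of these genes were lower in Ako-3 and between 6 and 8 in Mko-3, and 0 to 1 were higher in each clone. The list median was -0.15 and -0.24.

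Relatives of the receptors that shape the ER without a place in the receptor list moved both ways. In Ako-3, 4 of 13 tested rose and 2 fell, beside 25.5% and 24.4% of all genes, and in Mko-3, 6 rose and 4 fell, beside 26.9% and 27.1%. The number that fell in Ako-3 was 1 without Ako-3 replicate 1 and 4 with library size alone. ARL6IP1, a hairpin protein that binds RETREG receptors, rose by 0.38 in both clones, whereas ATL2, the paralog of ATL3, fell by 0.36 and 0.59. REEP2, a tubule-shaping protein, fell in Mko-3 by 1.22 (adjusted p = 4.9e-05, edgeR) and differed by -0.45 in Ako-3 (adjusted p = 0.055), where it passed without Huh-7 replicate 2 (0.013) or Ako-3 replicate 2 (0.032). RTN1, a reticulon with 8 to 57 counts per library, had log2 fold changes of 0.99 and 1.36, and its Ako-3 call did not hold without Huh-7 replicate 2 (adjusted p = 0.085) or Ako-3 replicate 3 (0.20).

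Among 9 transcription factor genes of lysosome biogenesis and ER stress, 8 were tested, of which 2 rose and 4 fell in Ako-3, beside 25.5% and 24.4% of all genes, and 0 rose and 7 fell in Mko-3, beside 26.9% and 27.1%. In Ako-3, 1 rose without Ako-3 replicate 3, and 1 rose and 6 fell with library size alone. DDIT3, which encodes the stress factor CHOP, had 40.6, 42.2 and 39.1 CPM in Huh-7, 13.5, 12.7 and 12.3 in Ako-3, and 14.6, 12.3 and 10.2 in Mko-3. It fell in both clones, with log2 fold changes of -1.67 ± 0.09 and -1.72 ± 0.11 and adjusted p-values of 1.2e-11 and 4.3e-11 in edgeR's test. TFE3, an E-box factor of lysosomal genes, fell by 0.58 and 0.33, and FOXO3, a factor of autophagy genes, by 0.60 and 0.82. TFEC, a relative of TFE3, rose by 1.06 in Ako-3 and fell by 0.63 in Mko-3 (adjusted p = 2.2e-05 and 0.013), although the fall did not pass without Huh-7 replicate 3 (0.086). The direct difference between the clones in TFEC was -1.70, with an adjusted p of 2.1e-14. TFEB, the best known of these factors, rose by 0.37 in Ako-3 (adjusted p = 0.011, edgeR) and differed by 0.03 in Mko-3 (0.84). The TFEB rise did not pass without Ako-3 replicate 3 (adjusted p = 0.052, edgeR) or with library size alone (0.053).

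**Figure D4:**
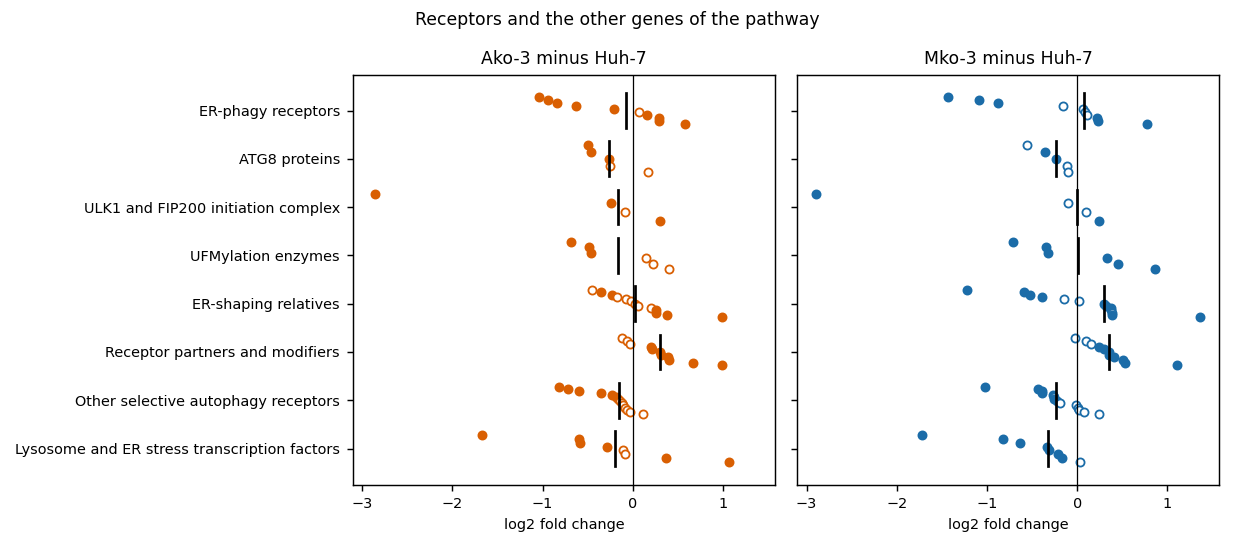
Log2 fold change (x axis) of each tested gene in the receptor list and the 7 other lists of the pathway (y axis), for Ako-3 minus Huh-7 on the left and Mko-3 minus Huh-7 on the right, where filled points passed an adjusted p of 0.05 and vertical bars mark list medians. Partners and modifiers lie mostly to the right of 0, with medians of 0.30 and 0.35, other selective autophagy receptors mostly to the left, and RB1CC1 stands far left at -2.86 and -2.89.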

How the data were processed

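RNA sequencing of 9 libraries, 3 each of Huh-7, Ako-3 and Mko-3 cells, was analysed. Libraries were grouped by their labels. To make the counts, the authors aligned poly(A)-selected, paired reads to hg38 with HISAT2 2.0.5 and counted genes with featureCounts 1.5.0-p3, and deposited raw counts of 58735 genes. The deposited FPKM values of the authors are counts divided by gene length and by a size factor over all 9 libraries, so the groups were scaled together.

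Counts were tested with edgeR 4.0.16 in R 4.3.3 (TMM, filterByExpr with a minimum count of 10, robust quasi-likelihood test), fitting the 6 libraries of each comparison on their own, with Benjamini-Hochberg adjustment over all genes tested. The standard error is the log2 fold change divided by the square root of F. A gene passed at an adjusted p of at most 0.05, and was called with the fold requirement at a log2 fold change of at least 1 in size. The code was tested on simulated data. Total counts of 14638727 to 20179760 per library leave genes near 10 counts with wide errors. Other settings were DESeq2 1.42.0 with its own test or size factors, no filter, at least 10 counts in every library, all libraries in 1 fit, a replicate block, leaving out each library and, added after seeing the data, library size alone.

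The members and lists were chosen with earlier results of these data known. Named genes were all members, APOB and MTTP, and of each list the genes called with the fold requirement plus up to 2 with the smallest adjusted p in each comparison with Huh-7. ULK1, UFSP2, UFSP1, UFC1 and TFEB, and the cell type markers KDR, CD68 and PTPRC, were named after their values were seen. Of the cell type markers that the rule takes, LYZ, PECAM1, CD14, CDH5, COL1A2, AFP and AHSG are named and the others are not. 1 gene is not reported here. Motifs were searched with Python 3.11.15 in RefSeq windows, and gene overlaps were taken from GENCODE release 44.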

Additional observations from a re-analysis of the deposited data

Results flagged for a closer look

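The clones differed from each other in 5 receptors by edgeR's quasi-likelihood test of the direct comparison, which did not use the Huh-7 libraries. The log2 fold change of Mko-3 over Ako-3 was 1.00 for RETREG1 (adjusted p = 0.0097), with Mko-3 higher in 3 of 3 libraries. It was 0.20 for TEX264 (adjusted p = 0.0058), again with all Mko-3 libraries higher. It was -0.18 for RETREG2 (adjusted p = 0.0043), -0.39 for CDK5RAP3 (adjusted p = 0.015) and -0.46 for CALCOCO1 (adjusted p = 2.9e-07), with all Mko-3 libraries lower. Since 41.6% of all genes passed in this comparison, such a difference was common. Each group is 1 clone, so a difference between knockouts and a difference between clones cannot be told apart. RETREG1 rests on 15 to 34 counts per library.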

How the results depend on the processing

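There were 469 values under alternatives for the receptors and their counts, with the genes of the other lists left out. Of these, 429 kept their direction and their side of the adjusted p threshold or, for counts, stayed within 1.5 times the reported count. The number of receptors called with the fold requirement in Ako-3, 1 as reported, ranged from 0 to 2 when libraries were left out in turn and was 2 with library size alone. Between the clones, where it was 0, it ranged from 0 to 1 without single libraries and was 1, namely RETREG1, in DESeq2, with no filter, with all libraries in 1 fit and with library size alone. The number passing an adjusted p alone between the clones, 5 as reported, ranged from 3 to 5 without single libraries. The sign changed for ATL3 in Ako-3 against Huh-7 (-0.026 with library size alone), for RETREG1 in Mko-3 against Huh-7 (-0.13 to 0.24 without single libraries, negative without Huh-7 replicate 2 or Mko-3 replicate 3, and -0.0080 with library size alone), for CCPG1 between the clones (-0.10 to 0.057, positive without Ako-3 replicate 1 or Mko-3 replicate 1) and for ATL3 between the clones (-0.0052 to 0.039, negative without Ako-3 replicate 3). None of these values passed in any setting. SEC62 in Mko-3 passed with at least 10 counts in every library (adjusted p = 0.042, edgeR), with all libraries in 1 fit (0.046) and with library size alone (0.0081). Of the targeted genes, APOB in Mko-3 had a log2 fold change of -0.05 and passed without Huh-7 replicate 1 at -0.19. The cause of these changes was not tested.

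Replicate numbers are shared by the groups, but same-numbered libraries did not deviate together, with correlations from -0.12 to 0.09 over 16169 genes, so the numbers were not taken as a pairing. With a replicate block 8 receptors passed in Ako-3, 6 in Mko-3 and 5 between the clones. Beside them, 7397 of 15787, 8562 of 15745 and 6612 of 15528 genes tested passed in the same setting. RTN3 in Ako-3 had an adjusted p of 0.095 there in edgeR's test. Huh-7 replicate 2 was the control library closest to the clones for CDK5RAP3, CALCOCO1, CCPG1, SEC62, TEX264 and RETREG3. For RETREG2, RTN3 and ATL3 it was the farthest. Without it, genes called with the fold requirement went from 1345 to 1637 in Ako-3 and from 1739 to 2106 in Mko-3. Both numbers were lower than reported without Huh-7 replicate 1 or 3. The cause was not tested. Depth limits RETREG1 most, whose interval against Huh-7 in Mko-3 spans more than 1 on the log2 scale.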
